A study of Mus musculus with 6 samples.

Results

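A group of 10 genes of glutathione synthesis and of the NRF2 response was followed in spleen RNA from NOD mice given MOTS-c or a control peptide. They are Nqo1, Gclm, Gclc, Gss, Gsr, Gpx1, Gpx4, Txnrd1, Nfe2l2 and Keap1, and they comprise every probe that carries one of these symbols in the authors' deposited fold-change table, 13 of its 31692 probes and 10 of its 16361 gene symbols. The genes were selected on the measured difference between MOTS-c and vehicle in these same arrays, so their differences are given as a description, without a test. The wider lists of pathway genes described further on were tested. These lists and the marker lists were also chosen with earlier results of these data known, so their counts are not independent evidence.

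All mice were female and of the NOD strain, which develops autoimmune diabetes spontaneously. They were bought at 6 weeks of age and injected intraperitoneally each morning. The MOTS-c group received 0.5 mg/kg/day of MOTS-c, which is a small peptide of mitochondrial origin. The vehicle group received a scrambled, non-specific version of the peptide, so both groups were injected with peptide and no uninjected mice and no other strain were compared here. At 18 weeks of age, following a fast of 16 to 18 h, the spleens were removed. Total RNA of the whole organ was read on 1-colour Agilent arrays, 3 per group. Whether the 3 samples within a group are separate mice is not stated in the labels, so the spread between samples may be technical. Each SE given with a difference is from the limma fit, which draws a probe's variance toward that of all probes tested. It can thus be smaller or larger than the samples of that probe alone would give. Because the organ was not sorted, fewer cells of a type and less RNA per cell cannot be told apart in any difference below.

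NRF2, encoded by Nfe2l2, is a transcription factor that KEAP1 holds in the cytoplasm and marks for degradation. Oxidants and electrophiles modify KEAP1, after which NRF2 enters the nucleus, pairs with a small MAF protein and binds antioxidant response elements in the genes of glutathione synthesis, NADPH supply and detoxification. Glutathione is made in sequential steps by glutamate-cysteine ligase and glutathione synthetase, is oxidised when glutathione peroxidases remove peroxides, and is reduced again by glutathione reductase. In the spleen, red cells and their precursors depend on this chemistry to protect haemoglobin, and red pulp macrophages handle the haem and iron of the red cells they engulf.

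Values are log2 signal relative to the 75th percentile of the same array, so a level of 0 is the signal at that percentile, and levels of different probes are not comparable. Between 61.9% and 64.0% of the spots of an array were well above background, no spot was saturated, and all 13 probes were well above background on 6 of 6 arrays. All marker genes listed for T cells, B cells, NK cells and red pulp macrophages that the array names by symbol were measurable. The arrays lay on 2 slides. Vehicle 1 and vehicle 2 were on slide 1, and vehicle 3 was on slide 2 with the 3 MOTS-c arrays, so only slide 2 holds both groups. With the slide as a block, the difference equals that of the MOTS-c arrays from vehicle 3 alone, and its error assumes that vehicle 3 varies as the other arrays do.

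Most of the 10 genes were lower with MOTS-c, but the sensor and the transcription factor themselves were not. Read from the brightest probe of each gene, 8 of 10 genes had a lower mean and 2 a higher one, with a median log2 difference of -0.66, from -1.31 for Nqo1 to 0.19 for Nfe2l2. Over the 16934 named genes tested, 47% had a lower mean and the median was 0.03. In 7 of the 10 genes, and 8 of the 13 probes, the 3 MOTS-c values lay below all 3 vehicle values, and in 0 probes they lay above. Over all 33737 probes tested, 18.5% lay below in this way and 16.3% above. Since the genes were chosen by this contrast, nothing is read from that gap. By limma's test 2 of all probes passed at an adjusted p under 0.05, which is 0.00593%, and both were higher with MOTS-c. At an unadjusted p under 0.05 by limma, 14.1% of probes were lower and 11.3% higher.

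**Figure D1:**
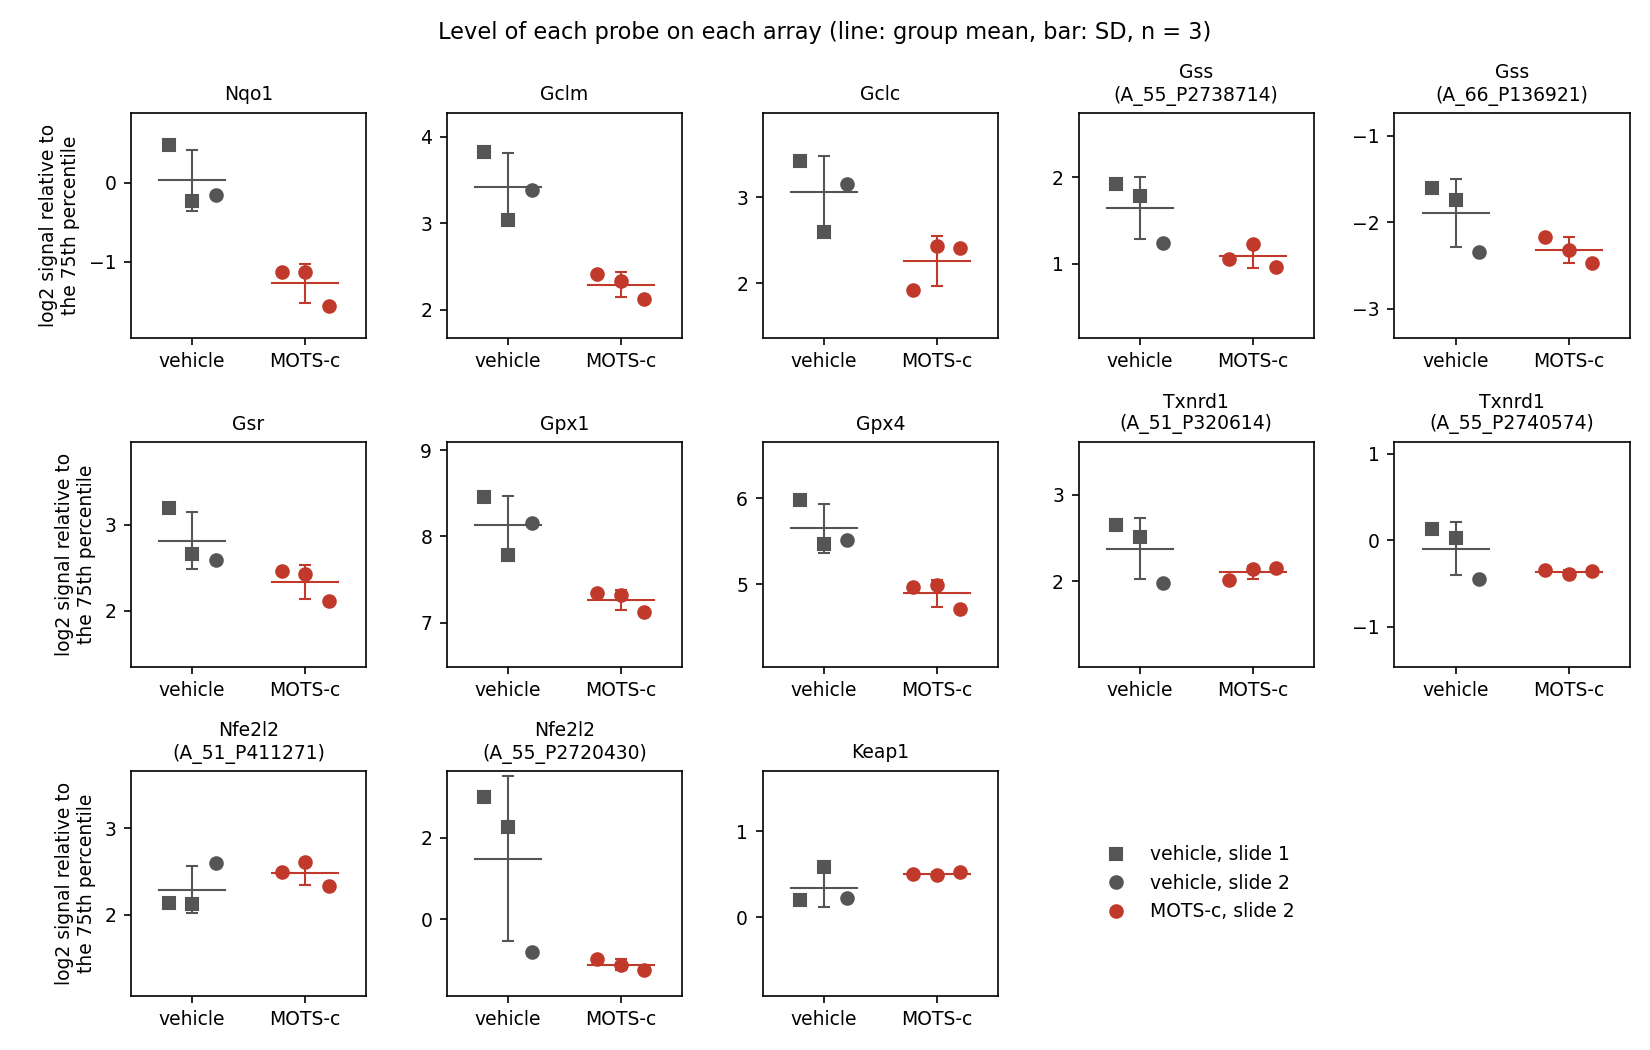
Level of each of the 13 probes on each array, as log2 signal relative to the array's 75th percentile, with the group mean as a horizontal line and the SD as a bar (n = 3); squares are arrays of slide 1 and circles arrays of slide 2. The groups separate for Nqo1, Gclm, Gclc, Gsr, Gpx1, Gpx4, 1 Gss probe and the Nfe2l2 probe A_55_P2720430, while both Txnrd1 probes, Keap1 and the Nfe2l2 probe A_51_P411271 overlap.

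Nqo1 encodes NAD(P)H quinone oxidoreductase, a detoxifying enzyme often used as the readout of NRF2 activity. Its probe lies on the minus strand at mm9 chr8:109912440-109912499. Nqo1 read 0.48, -0.23 and -0.16 on vehicle 1, 2 and 3 and -1.13, -1.13 and -1.55 on MOTS-c 1, 2 and 3. The groups did not overlap, and vehicle 1 and MOTS-c 3 were the extremes. The mean was lower by a log2 of -1.31 ± 0.24 (SE, n = 3 per group), a level 2.47-fold lower, and by -1.12 ± 0.34 with the slide as a block. In the authors' deposited table the signed fold of this probe is -2.49.

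Glutamate-cysteine ligase, the rate-limiting enzyme of glutathione synthesis, has a modifier subunit encoded by Gclm and a catalytic subunit encoded by Gclc. The Gclm probe, at mm9 chr3:121967737-121967796 on the plus strand, is the following 60-base sequence, shown because Gclm has the largest difference among the enzymes of glutathione synthesis.
Gclm probe A_66_P138964: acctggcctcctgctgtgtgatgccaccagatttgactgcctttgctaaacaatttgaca
Gclm read 3.83, 3.03 and 3.39 on the vehicle arrays and 2.41, 2.33 and 2.13 on the MOTS-c arrays. All MOTS-c values lay below the lowest vehicle value, with a difference of -1.13 ± 0.22 (SE, n = 3 per group), 2.18-fold lower, and -1.10 ± 0.33 with the slide as a block. Vehicle 3, which shares a slide with the MOTS-c arrays, lay between the other vehicle arrays, so the slide moved the Gclm difference little.

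Gclc read 3.42, 2.60 and 3.15 with vehicle and 1.92, 2.43 and 2.41 with MOTS-c, at mm9 chr9:77641296-77641355. The highest MOTS-c array lay just under vehicle 2. The difference was -0.80 ± 0.25 (SE, n = 3 per group), 1.74-fold lower, and -0.90 ± 0.38 with the slide as a block. Both subunits were thus lower with MOTS-c. They had the same order on the vehicle arrays but did not follow each other on the MOTS-c arrays. The log2 ratio of Gclm to Gclc, as a deviation from its mean, was 0.21, 0.24 and 0.04 on the vehicle arrays and 0.29, -0.29 and -0.48 on the MOTS-c arrays. The ratio was as high on MOTS-c 1 as on the vehicle arrays and lower on the other MOTS-c arrays.

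Gss encodes glutathione synthetase, which adds glycine in the last step of synthesis. It has 2 probes. The brighter one, A_55_P2738714 at mm9 chr2:155388927-155388986, read 1.92, 1.78 and 1.24 with vehicle and 1.06, 1.23 and 0.97 with MOTS-c. Vehicle 3 and MOTS-c 2 were nearly equal, and the groups did not overlap by that narrow margin. The difference of -0.56 ± 0.21 (SE, n = 3 per group) was -0.15 ± 0.21 with the slide as a block. The dimmer probe A_66_P136921, whose bases fall within mm9 chr2:155390637-155392549, read -1.60, -1.75 and -2.34 with vehicle and -2.17, -2.32 and -2.47 with MOTS-c. Its groups overlapped, and its difference of -0.42 ± 0.22 became 0.02 ± 0.21 once the slide was a block. For both Gss probes the slide 1 vehicle arrays were high and vehicle 3 lay close to the MOTS-c arrays.

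Gsr encodes glutathione reductase, which returns oxidised glutathione to its reduced form with NADPH. Gsr read 3.20, 2.66 and 2.59 with vehicle and 2.46, 2.43 and 2.11 with MOTS-c, at mm9 chr8:34808488-34808547. The groups did not overlap, but only vehicle 1 stood well above the MOTS-c arrays. The difference was -0.48 ± 0.21 (SE, n = 3 per group), and -0.25 ± 0.28 with the slide as a block, which is less than its error.

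The selenium-containing peroxidases were among the more separated genes. Gpx1, the abundant cytosolic peroxidase that removes hydrogen peroxide, read 8.46, 7.79 and 8.16 with vehicle and 7.35, 7.32 and 7.13 with MOTS-c, at mm9 chr9:108242276-108242335. Its difference was -0.87 ± 0.20 (SE, n = 3 per group), 1.83-fold lower, and -0.89 ± 0.30 with the slide as a block. The MOTS-c arrays were close together, and all lay under vehicle 2, the lowest vehicle array.

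Gpx4 reduces lipid peroxides in membranes and so restrains ferroptosis. Its probe falls within mm9 chr10:79518691-79518842 and read 5.98, 5.46 and 5.52 with vehicle and 4.98, 4.99 and 4.72 with MOTS-c. The groups were clearly apart, by -0.76 ± 0.19 (SE, n = 3 per group), 1.69-fold lower, and by -0.62 ± 0.27 with the slide as a block. The Gpx4 difference was smaller with quantile normalization (-0.52) and in the authors' deposited log2 values (-0.52). The log2 ratio of Gpx1 to Gpx4, as a deviation from its mean, stayed between -0.10 and 0.22 over the 6 arrays, so these peroxidases moved closely together.

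Txnrd1 encodes cytosolic thioredoxin reductase, the selenoenzyme that keeps thioredoxin reduced, and is a classical NRF2 target. Unlike Nqo1 and Gclm, it did not separate the groups. Probe A_51_P320614, at mm9 chr10:82360230-82360289, read 2.64, 2.51 and 1.97 with vehicle and 2.01, 2.13 and 2.15 with MOTS-c. The difference was -0.28 ± 0.20 (SE, n = 3 per group), and 0.12 ± 0.19 with the slide as a block. Probe A_55_P2740574, at mm9 chr10:82338379-82338438, read 0.13, 0.03 and -0.45 with vehicle and -0.34, -0.39 and -0.36 with MOTS-c. It gave -0.26 ± 0.18, and 0.09 ± 0.18 with the slide as a block. Both probes showed the same layout: the slide 1 vehicle arrays were high, and vehicle 3 was the lowest of the 6 arrays.

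Nfe2l2 has 2 probes that disagreed. Probe A_51_P411271, which the array design assigns to the coding transcript, lies at mm9 chr2:75513771-75513830 on the minus strand and read 2.14, 2.12 and 2.60 with vehicle and 2.49, 2.60 and 2.33 with MOTS-c. The groups overlapped, with a difference of 0.19 ± 0.18 (SE, n = 3 per group) that was -0.12 ± 0.20 with the slide as a block. By this probe the mRNA of the transcription factor was not distinguishable between the groups, while most of the target genes above had lower means.

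The other Nfe2l2 probe, assigned by the array design to a non-coding transcript model, lies at mm9 chr2:75529291-75529350 on the minus strand. It is shown because its signal followed the slide.
Nfe2l2 probe A_55_P2720430: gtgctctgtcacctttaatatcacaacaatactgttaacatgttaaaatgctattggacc
It read 3.01 and 2.25 on vehicle 1 and 2, -0.80 on vehicle 3, and -0.96, -1.11 and -1.24 on the MOTS-c arrays. Vehicle 3 sat with the MOTS-c arrays rather than with its own group. The difference of -2.59 ± 0.88 (SE, n = 3 per group), the largest of the 13 probes, was -0.31 ± 0.32 with the slide as a block, and the authors' deposited table lists it as a signed fold of -5.91. Of all 33737 probes tested it had the widest gap between the slide 1 arrays and the rest: the lower slide 1 array stood 3.05 above the highest slide 2 array. Only 8 probes had such a gap over 2 and 4 probes the reverse. A fold taken from this probe therefore rests on the slide 1 arrays, and what sets it was not tested.

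Keap1, the sensor that holds NRF2 back, read 0.20, 0.59 and 0.22 with vehicle and 0.50, 0.49 and 0.53 with MOTS-c, with its bases inside mm9 chr9:21035292-21035732. The MOTS-c arrays were nearly equal and lay within the range of the vehicle arrays. The difference was 0.17 ± 0.16 (SE, n = 3 per group), and 0.29 ± 0.22 with the slide as a block. In the authors' deposited table no probe of the 10 genes had an adjusted p below 0.37.

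**Figure D2:**
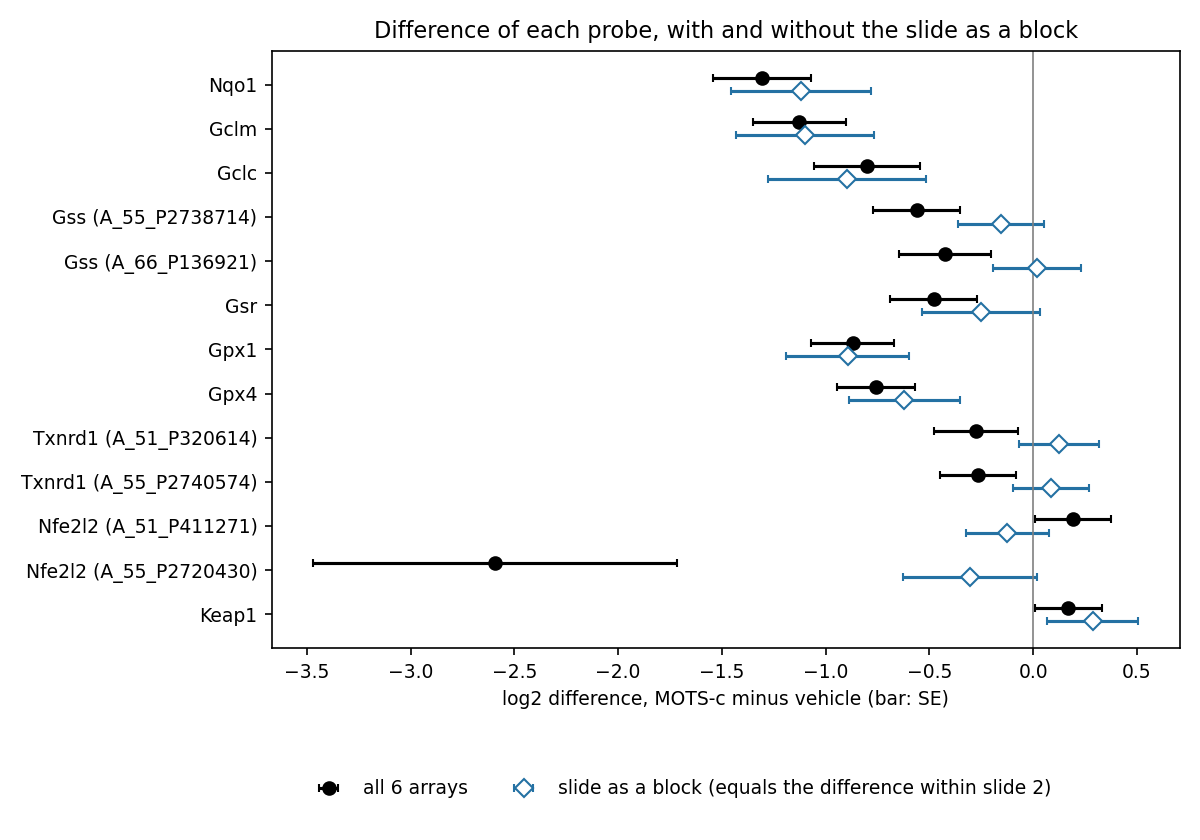
Difference of each of the 13 probes, MOTS-c minus vehicle on the log2 scale with its SE, from all 6 arrays (filled circles) and with the slide as a block (open diamonds). Nqo1, Gclm, Gclc, Gpx1 and Gpx4 keep their differences with the block, from -0.62 for Gpx4 to -1.12 for Nqo1, while those of Gss, Gsr, Txnrd1 and both Nfe2l2 probes move toward 0 or past it.

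The genes of this set did not all move together. For Nqo1, Gclm, Gclc, Gpx1 and Gpx4 the groups were separate, and the differences with the slide as a block ran from -0.62 to -1.12. The margin was narrow for Gclc, with 2.60 on vehicle 2 against 2.43 on MOTS-c 2. For Gss and Gsr the groups were also separate by a narrow margin, and the differences with the block were -0.15 and -0.25. Txnrd1, Keap1 and the Nfe2l2 probe of the coding transcript had overlapping groups. Within slide 2 alone, 8 of the 10 genes had a lower MOTS-c mean, with Nfe2l2 among them in place of Txnrd1. In 7 all 3 MOTS-c values lay below vehicle 3, against 32.1% of named genes. The median within slide 2 was -0.44, against 0.03 for all named genes. These arrays are part of the contrast that chose the genes, so nothing is read from these gaps. The count of 7 genes with separate groups was 6 with quantile normalization or the authors' deposited log2 values, 5 with normexp background correction, and 7 or 8 when any 1 array was left out.

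The arrays of a group also had an order that many of the genes shared. Vehicle 1 was the highest vehicle array in 8 of the 10 genes, as it was in 37.7% of all named genes, and MOTS-c 3 was the lowest MOTS-c array in 7, as in 38.3% of all. As a mean deviation of the 10 genes from their own means, the arrays read 0.54, 0.15 and 0.18 for vehicle and -0.28, -0.20 and -0.39 for MOTS-c. Vehicle 1 was thus the highest, and vehicle 2 and 3 lay between it and the MOTS-c arrays.

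The closest neighbours of Nqo1 were found by Pearson correlation over the 6 arrays among 16933 other named genes, as a description, since the arrays fall into 2 separate groups that all such genes share. They were Cachd1 (r = 0.999), the histone gene H3c4 (r = 0.998), Mpst (r = 0.998), Gpx4 (r = 0.997) and Mrpl48 (r = 0.997). Among the other members, Gclm had r = 0.987 with Nqo1 and Gpx1 r = 0.979, and 122 and 287 named genes were at least as close. The values for Gsr, Gss and Gclc were 0.932, 0.869 and 0.841. Txnrd1 had r = 0.643, Nfe2l2 r = -0.465 and Keap1 r = -0.694. The difference between the groups that chose these genes also sets these correlations, so nothing about shared control is read from them.

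Promoter sequence was read for the genes that the RefSeq table of GRCm38.p6 lists, 8 of the 10, in 13 windows from 250 bases before to 50 after a transcript start. The core of the antioxidant response element was searched on both strands as TGACNNNGC, and the AP-1 site, which can lie inside it, as TGANTCA. The element core occurred in 3 of the 13 windows, 1 each of Gclm, Txnrd1 and Nfe2l2, against 12.4% of 32851 windows of all genes. The AP-1 letters occurred in 0 of the 13, against 7.81% of all. The 250 bases before the start are printed for these 3 windows and for Nqo1, the gene with the largest difference by its brightest probe, 5′ to 3′ on the strand of the gene, with the element core in capitals.
Gclm, chr3:122245307-122245556, plus strand: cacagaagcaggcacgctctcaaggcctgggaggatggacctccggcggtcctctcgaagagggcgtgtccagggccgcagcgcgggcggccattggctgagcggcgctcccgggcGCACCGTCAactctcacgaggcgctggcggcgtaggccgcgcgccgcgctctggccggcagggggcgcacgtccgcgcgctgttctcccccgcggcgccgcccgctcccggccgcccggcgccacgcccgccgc
Txnrd1, chr10:82858956-82859205, plus strand: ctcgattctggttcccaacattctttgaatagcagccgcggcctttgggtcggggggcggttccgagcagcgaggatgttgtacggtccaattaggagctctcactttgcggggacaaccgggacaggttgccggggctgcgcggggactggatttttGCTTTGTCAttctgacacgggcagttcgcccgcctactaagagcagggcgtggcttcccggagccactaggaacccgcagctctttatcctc
Nfe2l2, chr2:75704664-75704913, minus strand: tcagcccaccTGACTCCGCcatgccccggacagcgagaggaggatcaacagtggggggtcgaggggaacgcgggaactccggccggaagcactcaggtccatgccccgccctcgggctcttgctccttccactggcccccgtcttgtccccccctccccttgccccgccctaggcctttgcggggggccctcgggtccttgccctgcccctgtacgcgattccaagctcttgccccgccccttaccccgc
Nqo1, chr8:107403206-107403455, minus strand: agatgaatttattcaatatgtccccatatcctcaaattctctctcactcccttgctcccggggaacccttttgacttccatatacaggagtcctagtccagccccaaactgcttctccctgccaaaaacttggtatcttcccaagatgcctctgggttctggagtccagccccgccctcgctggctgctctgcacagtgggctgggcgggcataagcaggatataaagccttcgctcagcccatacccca
The match lies at -134 to -126 in Gclm and at -92 to -84 in Txnrd1, both on the opposite strand, and at -240 to -232 in Nfe2l2 on the gene's own strand. A match is a description of letters and not a bound site. Sequence outside the windows was not searched, so a window without the letters does not show that the gene lacks the element. Windows with the letters belonged to a gene with a lower mean and separate groups (Gclm), a gene whose groups overlapped (Txnrd1) and Nfe2l2 itself, and the Nqo1 window held none.

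Beyond the 10 genes, 100 further genes in 4 lists were tested, and 0 passed limma's adjusted p of 0.05 over all probes. At an unadjusted p under 0.05 by limma, 19 were lower and 0 higher, against 14.2% lower and 10.5% higher over all named genes. Of the 100, 65 had a lower mean, against 47% of all named genes, with a median log2 difference of -0.12, and 30% had all MOTS-c values below all vehicle values against 6% above. Over all named genes these shares were 19.2% and 16.3%. When vehicle 2 was left out, 9 of the 100 passed as lower by limma: Nfe2, Blvrb, Glrx5, Hagh, Mgst3, Chac2, Txnrd2, Slc25a39 and Mafk (adjusted p from 0.0454 to 0.0479), where 1113 probes in all passed. Across these lists the median depended on scaling: it was -0.03 with quantile normalization, with 56 of the 100 lower.

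Among 29 NRF2 targets other than the 10 genes, 19 had a lower mean and 6 of these had an unadjusted p under 0.05, with none higher at that level. The 6 are 20.7% of the list, against 14.2% of all named genes. At that level 2 genes were left without MOTS-c 3, and 3 without vehicle 1 or without MOTS-c 2. Over all 16934 named genes, 4182 were at that level in either direction with all arrays. That count was 2374 without MOTS-c 3, 3078 without vehicle 1 and 2878 without MOTS-c 2. The median of the list was -0.21, -0.14 with the slide as a block and -0.03 with quantile normalization. Blvrb, a reductase of flavins and biliverdin that is abundant in red cells, read 5.97, 5.43 and 5.72 with vehicle and 4.58, 4.84 and 4.54 with MOTS-c. The groups were well apart, and the difference was -1.05 ± 0.19 (limma adjusted p 0.0795). Txn1, the cytosolic thioredoxin, differed by -0.50 ± 0.16 (limma adjusted p 0.131), and Fth1, the ferritin heavy chain, by -0.45 ± 0.15 (limma adjusted p 0.134). The remaining 3 of the 6, named after their values were seen, were Cat, the catalase that removes hydrogen peroxide, with -0.57 ± 0.20, the glutathione transferase Gsta4 with -0.72 ± 0.27, and Taldo1 of the pentose phosphate pathway with -0.40 ± 0.16 (limma adjusted p 0.146, 0.163 and 0.176). On the higher side, Ephx1, microsomal epoxide hydrolase, had 0.36 ± 0.17, Pgd of the pentose phosphate pathway 0.28 ± 0.17, and Ugdh, which makes UDP-glucuronic acid, 0.21 ± 0.18 (limma adjusted p 0.221, 0.327 and 0.456). None of these passed the threshold.

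Some other targets that are widely used as NRF2 readouts were picked from the same list after their values were seen, so they do not stand for the list. Hmox1, the haem oxygenase, read 6.16, 6.09 and 5.91 with vehicle and 6.00, 5.69 and 5.80 with MOTS-c, a difference of -0.22 ± 0.16 with overlapping groups. Slc7a11, the cystine importer that supplies cysteine for glutathione, differed by 0.06 ± 0.29. The difference was -0.31 ± 0.18 for Srxn1, sulfiredoxin, and -0.03 ± 0.16 for G6pdx, which feeds NADPH to glutathione reductase. The differences for Me1, Gstm1 and Prdx1 were 0.07 ± 0.16, 0.15 ± 0.20 and -0.04 ± 0.14. Of the 4 Prdx1 probes tested, the 3 others had the opposite sign.

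Of 13 partners and regulators of NRF2, 8 had a lower mean, 3 (23.1%) with an unadjusted p under 0.05. Over all named genes, 47% had a lower mean and 14.2% were lower at that level. The 3 were Nfe2, the p45 subunit that pairs with small MAF proteins in the red cell and platelet lineages, with -0.94 ± 0.23, Btrc, a ubiquitin ligase receptor that can also target NRF2, with -0.91 ± 0.25, and Mafk, a small MAF partner, with -0.71 ± 0.23. Their limma adjusted p-values were 0.0896, 0.105 and 0.131. Nfe2 read 5.03, 4.28 and 4.89 with vehicle and 3.92, 3.89 and 3.59 with MOTS-c, and the groups did not overlap. Bach2, a transcriptional repressor that acts in B and T cells, had 0.52 ± 0.32, Nfe2l1 0.18 ± 0.14 and Dpp3, which binds KEAP1, 0.12 ± 0.16 (limma adjusted p 0.333, 0.411 and 0.637). Another probe of Nfe2l1 had the opposite sign. The median of the 13 genes was -0.13, and -0.04 with quantile normalization. At an unadjusted p under 0.05 by limma stood 2 genes without MOTS-c 2 and 5 without vehicle 2. Over all 16934 named genes these counts, in either direction, were 2878 and 4929, against 4182 with all arrays.

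Of 34 genes of glutathione supply, turnover and use, 22 had a lower mean, 7 with an unadjusted p under 0.05, and none was higher at that level. The 7 are 20.6% of the list, against 14.2% of all named genes, and with quantile normalization 18 of the 34 had a lower mean. The lowest p-values belonged to Mgst3, a microsomal glutathione transferase, with -1.27 ± 0.21, Glrx5, the mitochondrial glutaredoxin of iron-sulfur cluster assembly, with -1.24 ± 0.19, and Hagh, the second enzyme of the glyoxalase path, with -1.16 ± 0.19. Each had a limma adjusted p of 0.0795. Glrx5 read 6.35, 5.71 and 5.90 with vehicle and 4.76, 4.80 and 4.69 with MOTS-c. Slc25a39, the mitochondrial glutathione importer, differed by -1.24 ± 0.22, and Chac1, which degrades glutathione, by -1.73 ± 0.44; both were picked after their values were seen. On the higher side stood Ggct, Anpep and Gstk1 with 0.49 ± 0.23, 0.54 ± 0.27 and 0.37 ± 0.19 (limma adjusted p 0.229, 0.243 and 0.264).

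Of 24 genes of the thioredoxin system and of selenoprotein synthesis, 16 had a lower mean, and the median was -0.05. The 3 of these with an unadjusted p under 0.05 are 12.5% of the list, below the 14.2% of all named genes. In either direction, 1 gene was left at that level without MOTS-c 3, and 7 were at it without vehicle 3. Over all 16934 named genes these counts were 2374 and 5026, against 4182 with all arrays. Blocking on the slide gave this list a median of -0.02. With quantile normalization 12 of 24 had a lower mean. Txnrd2, the mitochondrial thioredoxin reductase, read 5.29, 4.57 and 5.06 with vehicle and 3.93, 4.08 and 3.91 with MOTS-c. The groups were separate, by -0.999 ± 0.21 (limma adjusted p 0.0796), whereas its cytosolic relative Txnrd1 overlapped. Sephs1 had -0.50 ± 0.17 and Selenof, a selenoprotein of the endoplasmic reticulum, -0.44 ± 0.16 (limma adjusted p 0.138 and 0.151), with another Selenof probe of the opposite sign. Pstk, which acts in the making of selenocysteinyl-tRNA, had 0.51 ± 0.23, Selenoo 0.12 ± 0.13 and Txnip, the thioredoxin inhibitor, 0.16 ± 0.20 (limma adjusted p 0.217, 0.559 and 0.618).

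**Figure D3:**
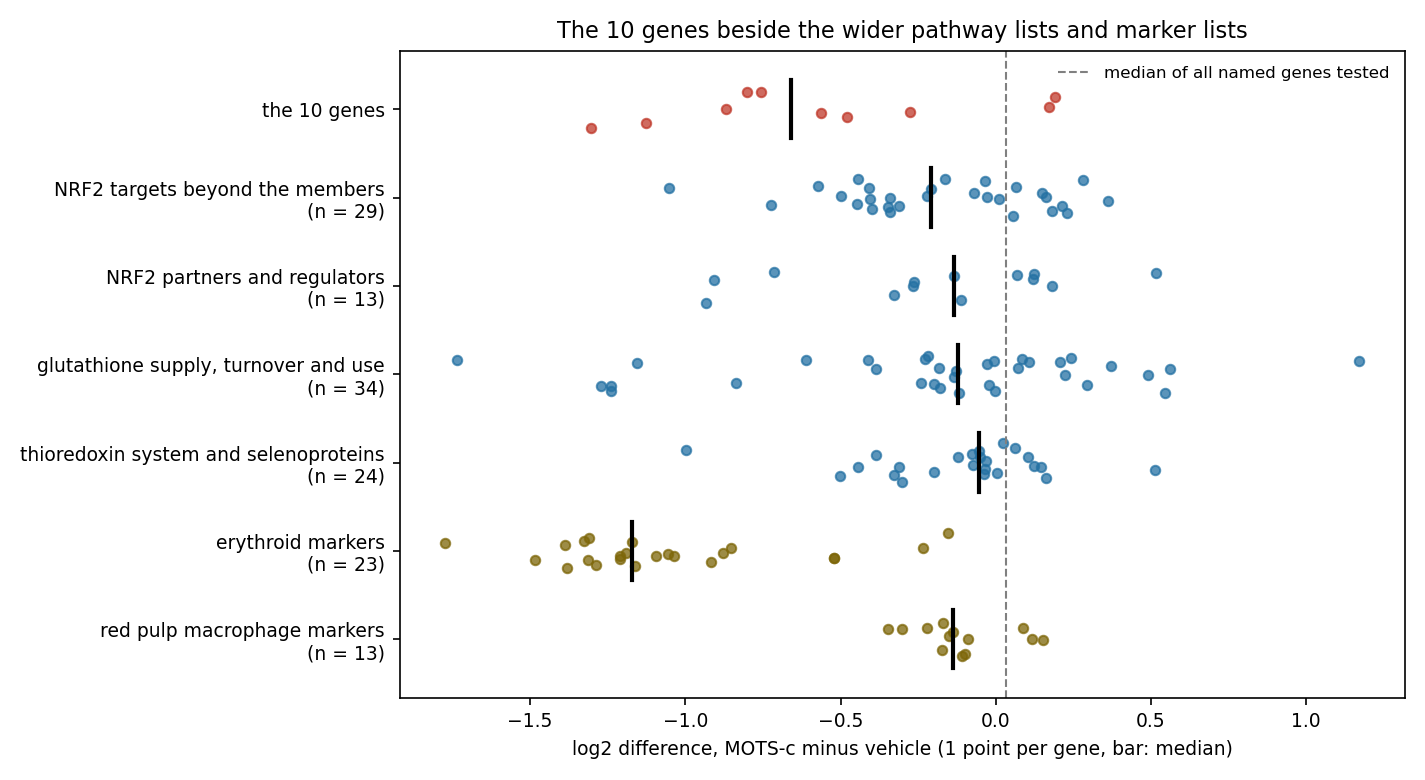
Log2 difference, MOTS-c minus vehicle, of each gene (1 point per gene, vertical bar at the median) for the 10 genes, the 4 wider pathway lists and 2 marker lists; the dashed line is the median of all named genes tested, 0.03. The 10 genes, chosen by this difference, have a median of -0.66, the pathway lists medians from -0.21 to -0.05, the erythroid markers -1.17 and the red pulp macrophage markers -0.14, which turns to 0.075 with quantile normalization.

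Erythroid and cell cycle markers were lower with MOTS-c, as most of the 10 genes were. Of 23 erythroid markers, 23 had a lower mean with MOTS-c, with a median of -1.17. In 22 all MOTS-c values lay below all vehicle values, against 19.2% of all named genes. With quantile normalization 22 of 23 had a lower mean. None passed limma's adjusted p of 0.05. At an unadjusted p under 0.05 by limma 21 were lower, against 14.2% of all named genes. The summed level of the erythroid markers was 10.8 to 11.4 on the vehicle arrays and 10.4 to 10.5 on the MOTS-c arrays. Of 24 cell cycle markers, 24 were lower at an unadjusted p under 0.05, against the same 14.2%. Of these, 0 passed adjustment, and the median was -1.15. As mean deviations, the erythroid markers read 0.91, 0.12 and 0.57 with vehicle and -0.53, -0.41 and -0.65 with MOTS-c, and the cell cycle markers 0.98, 0.27 and 0.46 with vehicle and -0.74, -0.29 and -0.68 with MOTS-c. Vehicle 1 was the highest array of both lists, as it was for the 10 genes together, and the MOTS-c arrays were the lowest. The part of this in the lower levels of Nqo1, Gclm, Gclc, Gpx1, Gpx4, Blvrb, Glrx5, Nfe2 and Txnrd2 was not tested.

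The red pulp macrophage markers, which include Hmox1, moved less: 10 of 13 had a lower mean, with a median of -0.14, and 0 had an unadjusted p under 0.05. The direction depended on scaling, since 5 of 13 were lower with quantile normalization, with a median of 0.075. Their mean deviations were 0.12, 0.04 and 0.001 with vehicle and 0.19, -0.20 and -0.16 with MOTS-c, and the groups overlapped. Lymphocyte markers had higher means throughout: 18 of 18 for T cells (median 0.96), 16 of 16 for B cells (median 0.72) and 12 of 12 for NK cells (median 1.08). These medians were 0.44, 0.30 and 0.44 without vehicle 1. A slide block, which leaves vehicle 3 as the only vehicle array compared, made them 0.38, 0.49 and 0.56. Neutrophil markers were higher in 14 of 15 genes with a median of 0.90, but the neutrophil means of the groups overlapped. That median was -0.018 with the slide as a block, 0.50 without vehicle 2, 0.60 without MOTS-c 2, 1.36 without vehicle 3 and 1.57 without MOTS-c 3. The 10 megakaryocyte and platelet markers had no stable direction: all had higher means with all arrays (median 0.17), 9 had lower means with the slide as a block (median -0.42), and the median was -0.07 without vehicle 1, -0.055 without MOTS-c 1 and 0.43 without vehicle 3. None of these markers passed limma's adjusted p of 0.05.

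**Figure D4:**
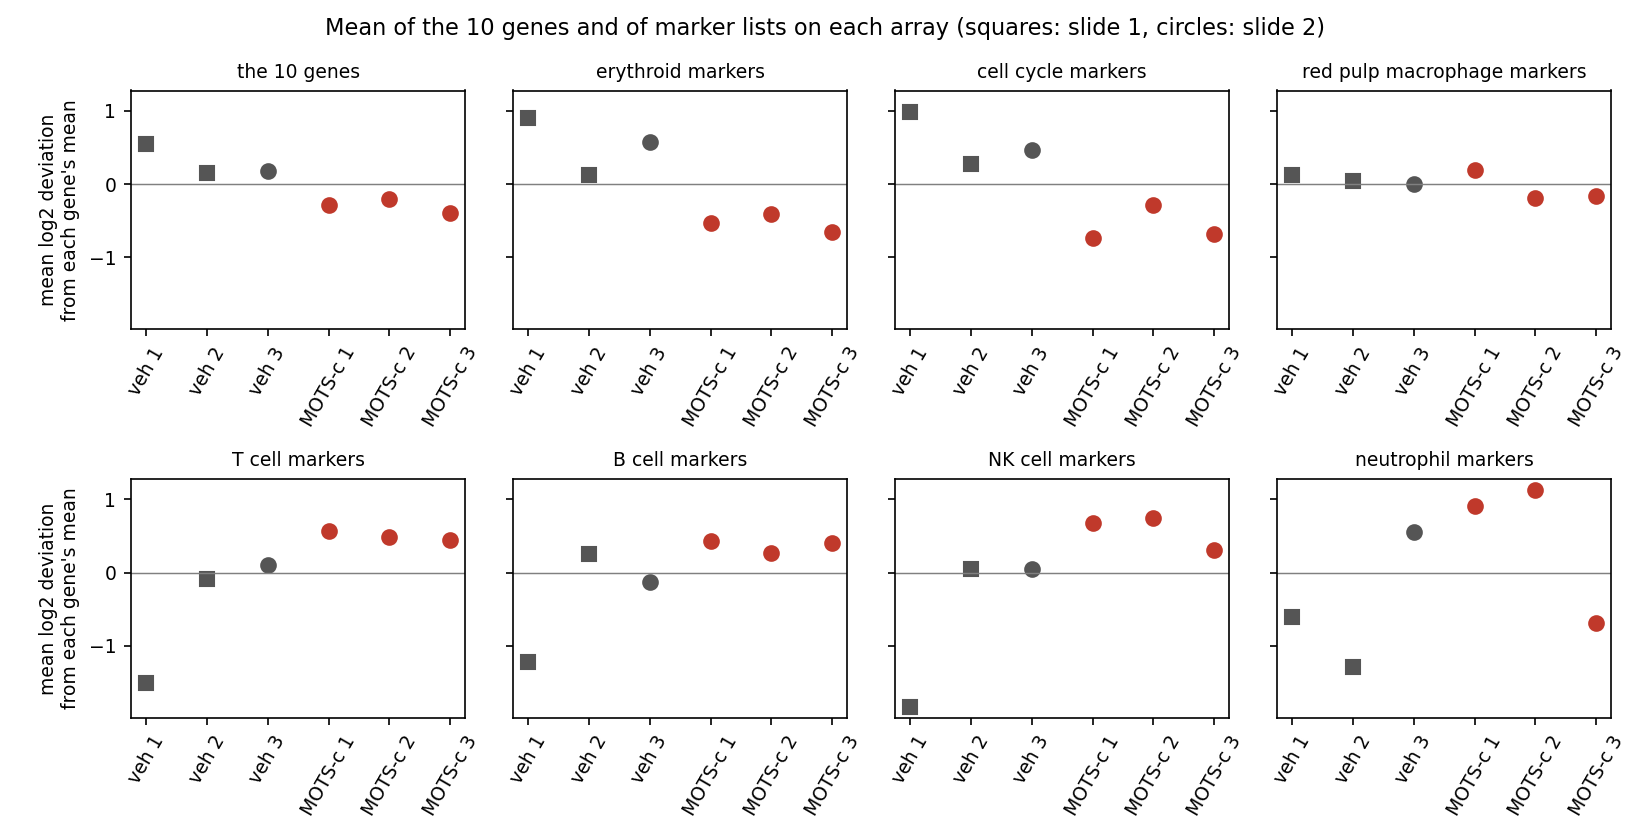
Mean log2 deviation from each gene's own mean, per array, for the 10 genes and 7 marker lists; squares are arrays of slide 1 and circles arrays of slide 2. The 10 genes, the erythroid and the cell cycle markers are highest on vehicle 1 and lowest on the MOTS-c arrays, whereas the T cell, B cell and NK cell markers are lowest on vehicle 1.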

How the data were processed

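RNA of 6 spleen samples was read on 1-colour arrays. Agilent Feature Extraction 11.0.1.1, per the file headers, gave a background-subtracted processed signal intensity per spot. The authors' deposited table holds log2 values of these signals (quantile normalized, judging by equal distributions), a signed fold stored as a score, and a p-value, for probes well above background on all 6 arrays.

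Outlier spots were left out (97 to 145 per array), spots of a probe were averaged, and each level was log2 signal after subtracting that array's 75th percentile. The 33737 probes well above background in every array of either group were tested by limma 3.58.1 in R 4.3.3 (two-sided, Benjamini-Hochberg over all probes, threshold 0.05). A gene was read from its brightest probe. The smallest p that an exact permutation test of 3 against 3 can give is 0.1. The fit was tested on simulated data.

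The genes and lists were chosen with earlier results of these data known. Of each pathway list, the 3 genes with the smallest p on each side are named; others were picked after seeing values. The counts of separate groups under other settings and within slide 2 were chosen after seeing the data. Replicate numbers came from the titles; the descriptions of vehicle 3 and MOTS-c 3 give others. Deviations of same-numbered samples correlated at -0.17, 0.01 and -0.09, so the numbers were not taken as pairs. Background correction by normexp used the median signal. Probe positions come from the array design (mm9, per the file headers); exons and untranslated regions were not determined.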

Additional observations from a re-analysis of the deposited data

How the results depend on the processing

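The count of 2 called probes was 0 with normexp background correction, without the filter on dim probes, in the authors' deposited log2 values and with the replicate block, and 1 with the slide as a block. At an unadjusted p under 0.05 by limma these settings had 8802, 9045, 8198, 7174 and 3204 probes. Leaving out 1 array each gave 0 to 1113 called probes, the most without vehicle 2, and 0 to 9 called genes of the wider lists, of which 9 came without vehicle 2 and 0 under each other setting. The median of the 10 genes moved from -0.66 to -0.44 with the slide as a block and ranged from -0.78 to -0.44 over 13 settings. Among the 10 genes, directions turned with the slide as a block, to 0.12 and 0.086 for the Txnrd1 probes, 0.019 for the dimmer Gss probe and -0.12 for Nfe2l2, and on averaging all probes of a gene, where Nfe2l2 was -1.20; the block leaves vehicle 3 as the only vehicle array compared. Nqo1, Gclm, Gclc, Gss (brighter probe), Gsr, Gpx1, Gpx4 and Keap1 kept their direction in 13 of 13 settings. The replicate block left every difference as it was. Precision is limited by 3 arrays per group.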
